A study of Mus musculus with 6 samples.

Results

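Lef1, Tcf7, Tcf7l1 and Tcf7l2 are the 4 TCF/LEF transcription factors of the mouse, and Ctnnb1 encodes β-catenin, the protein that they recruit to DNA. The H3K4me1 peaks of these 5 genes, of 21755 protein-coding genes in the annotation, were examined in whisker pads at embryonic day 12. A peak was given to a gene when it overlapped the gene body with 5 kb on each side. It was also given to a gene when it lay up to 100 kb from the gene body and its nearest protein-coding start site belonged to that gene. By this rule 51 of 16788 peaks belonged to the 5 genes in replicate 1, 39 of 12969 in replicate 2 and 34 of 13998 in replicate 3. Joined where they overlapped by at least 1 bp, the peaks of the 3 replicates gave 43 of 19251 regions.

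H3K4me1 is histone H3 with 1 methyl group on lysine 4, a mark found at enhancers and beside start sites. CUT&Tag was used to map it: an antibody tethers a transposase to the mark, and the DNA cut out around it is sequenced. The samples were 3 microdissected pads of strain B6/J2 in the labels (the study's methods list C57/B6J2 mice), digested to single cells, and 3 IgG samples of the same design, which were not analysed here. The pads were wild-type per the methods, the labels name no treatment, and neither says whether the 3 pads came from different embryos. The replicates therefore measure the spread between these pads.

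In canonical Wnt signalling a ligand at the cell surface stops a destruction complex from degrading β-catenin, which then enters the nucleus and binds the amino-terminal end of TCF/LEF factors. Without β-catenin the same factors hold co-repressors of the Groucho/TLE family on their target genes. Lef1 is known mainly as an activator and Tcf7l1 mainly as a repressor, whereas Tcf7l2 and Tcf7 are known in either role. Lef1 is required for whisker development and is present in the pad mesenchyme before follicles form, and its shorter forms without the β-catenin binding domain arise from an internal promoter.

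For 2 of the 3 H3K4me1 samples, replicates 2 and 3, the source name is adult kidney while the title is whisker pad, and the titles were followed. A peak over the gene body with 5 kb on each side was present for 12 of 12 facial mesenchyme genes in each replicate, beside 24.9%, 22.6% and 19.6% of all genes in replicates 1, 2 and 3. For adult kidney genes this was the case for 4, 4 and 2 of 12 in replicates 1, 2 and 3, of which Slc12a1 and Cubn carried a peak in all 3. The kidney genes Umod, Slc34a1 and Slc12a3 had no peak in any replicate. In place of the depth that each library reached, which the lists do not hold, the length covered by peaks was 63.3, 59.5 and 57.1 Mb in replicates 1, 2 and 3. Signals were compared only as shares of the summed total signal of a list or as percentiles within a list, where 100 is the strongest peak. The percentile of a region in a replicate is that of its strongest peak there.

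To show the DNA under the strongest signal of each gene, the 300 bases around the maximum of its strongest region with a peak in all 3 replicates are given first. The sequences are the forward strand of GRCm38, and each window was centred on the replicate with the highest percentile. Capitals mark the letters CTTTGAT or CTTTGAA on either strand, the core that TCF/LEF factors bind, and a window without capitals holds neither.
Lef1, intron 3, chr3:131137577-131137876: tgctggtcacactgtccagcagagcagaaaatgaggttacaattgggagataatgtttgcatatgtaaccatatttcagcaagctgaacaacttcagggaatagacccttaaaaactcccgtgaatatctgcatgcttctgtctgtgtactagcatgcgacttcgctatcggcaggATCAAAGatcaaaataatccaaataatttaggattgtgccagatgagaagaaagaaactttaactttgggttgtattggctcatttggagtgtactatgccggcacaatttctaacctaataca
Tcf7, intron 3, chr11:52272234-52272533: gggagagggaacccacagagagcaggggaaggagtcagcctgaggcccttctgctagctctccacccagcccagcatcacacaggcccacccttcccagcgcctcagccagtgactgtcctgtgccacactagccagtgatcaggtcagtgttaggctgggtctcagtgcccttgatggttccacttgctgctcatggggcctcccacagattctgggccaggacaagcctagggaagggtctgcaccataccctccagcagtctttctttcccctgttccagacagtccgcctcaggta
Tcf7l1, intron 3, chr6:72677927-72678226: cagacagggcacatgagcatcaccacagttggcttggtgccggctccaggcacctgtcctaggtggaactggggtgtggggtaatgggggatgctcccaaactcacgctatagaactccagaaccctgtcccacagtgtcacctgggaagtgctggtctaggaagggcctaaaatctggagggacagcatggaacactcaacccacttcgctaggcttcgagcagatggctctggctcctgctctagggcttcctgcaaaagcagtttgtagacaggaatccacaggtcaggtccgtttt
Tcf7l2, intron 4, chr19:55828540-55828839: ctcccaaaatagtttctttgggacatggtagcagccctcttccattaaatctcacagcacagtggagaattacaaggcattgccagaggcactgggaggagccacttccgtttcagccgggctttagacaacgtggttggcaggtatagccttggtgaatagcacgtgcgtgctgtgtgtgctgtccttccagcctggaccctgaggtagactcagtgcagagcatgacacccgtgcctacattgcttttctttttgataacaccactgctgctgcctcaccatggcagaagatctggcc
Ctnnb1, upstream, chr9:120866699-120866998: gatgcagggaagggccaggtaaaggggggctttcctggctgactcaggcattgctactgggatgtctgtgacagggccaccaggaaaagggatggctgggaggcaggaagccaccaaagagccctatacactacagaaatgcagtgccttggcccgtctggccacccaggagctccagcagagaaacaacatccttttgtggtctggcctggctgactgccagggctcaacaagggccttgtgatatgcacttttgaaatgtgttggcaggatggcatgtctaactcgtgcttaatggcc

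The replicates placed the maxima of these regions at different distances from each other. In Tcf7 the maxima lay within 39 bp of each other. In Lef1 those of replicates 1 and 2 were 1.6 kb from that of replicate 3, the spread being 1612 bp, and in Ctnnb1 the spread was 3609 bp. The strongest regions of Tcf7l1 and Tcf7l2 were 31.7 kb and 28.3 kb long, and their maxima were spread over 19193 and 17374 bp. In Lef1 and Tcf7l1, for example, another region of the gene body had the maxima of all replicates almost at the same base, and these windows, centred on the middle maximum, are therefore shown as well. The spread was 53 bp in Lef1 and 15 bp in Tcf7l1. In Tcf7l2, of which no such window is shown, the smallest spread was 4 bp, closer than in both windows shown. The maxima of 7 of 9 shared regions of Tcf7l2 lay within 500 bp of each other.
Lef1, intron 8, chr3:131195996-131196295: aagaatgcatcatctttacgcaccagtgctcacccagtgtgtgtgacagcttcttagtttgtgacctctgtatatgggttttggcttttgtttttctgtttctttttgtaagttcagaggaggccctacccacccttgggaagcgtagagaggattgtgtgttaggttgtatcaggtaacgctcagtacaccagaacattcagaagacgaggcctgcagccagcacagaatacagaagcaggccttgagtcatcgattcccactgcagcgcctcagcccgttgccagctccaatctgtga
Tcf7l1, intron 3, second window, chr6:72766572-72766871: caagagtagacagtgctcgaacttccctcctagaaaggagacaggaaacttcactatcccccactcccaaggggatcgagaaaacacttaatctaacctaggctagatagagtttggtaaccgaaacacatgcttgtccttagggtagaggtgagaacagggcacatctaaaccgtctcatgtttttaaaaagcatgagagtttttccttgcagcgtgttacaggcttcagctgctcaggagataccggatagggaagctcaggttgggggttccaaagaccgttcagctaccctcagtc

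Only the Lef1 window in intron 3 held the motif, as ATCAAAG, which is CTTTGAT on the reverse strand. That window was centred on the maximum of replicate 3, and the maxima of replicates 1 and 2 lay outside it. Among the windows of all 28 regions of the 5 genes with a peak in all 3 replicates, 1 more held the motif. It was that of the region furthest downstream of Ctnnb1, with CTTTGAA. This made 2 of 28 windows, beside 10.1% of 8916 windows around such regions in the whole lists. Over the full length of the regions the motif occurred 91 times in 273.8 kb, or 0.332 times per kb, beside 0.408 per kb in all shared regions. It was found 23 times in the 46.0 kb of the 6 shared Lef1 regions and 26 times in the 101.3 kb of the 8 of Tcf7l1. The counts were 2 in 3.32 kb for Tcf7, 28 in 97.3 kb for Tcf7l2 and 12 in 25.9 kb for Ctnnb1. Per kb, Lef1, Tcf7 and Ctnnb1 thus lay above the value of all shared regions and Tcf7l1 and Tcf7l2 below it. In the RefSeq promoters of the 5 genes, from 250 bases before to 50 after a start, 0 of 11 held the motif, beside 8.65% of 32851 promoters. No match means only that these letters are not in these windows.

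The 5 genes carried very different amounts of H3K4me1. By share of the list signal Tcf7l1 and Tcf7l2 stood highest, Lef1 and Ctnnb1 followed, and Tcf7 had least. All 5 genes had a peak over the body with 5 kb on each side in each of the 3 replicates, as had 15.5% of all protein-coding genes. That share rises with gene length, to 40.5% of genes of 100 to 200 kb, the class of Lef1, Tcf7l1 and Tcf7l2, and is 13.3% of genes of 20 to 50 kb, the class of Tcf7 and Ctnnb1.

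**Figure D1:**
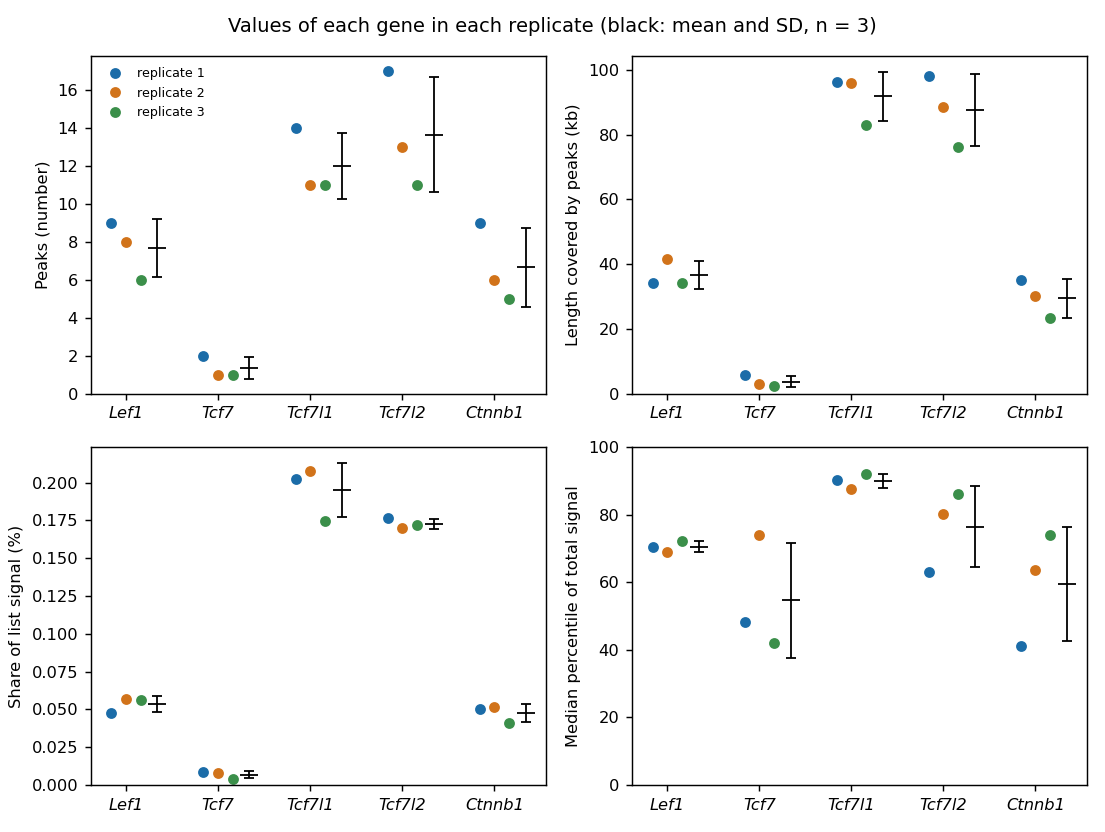
Number of peaks, length covered by peaks in kb, share of the summed total signal of the list in percent, and median percentile of total signal for each gene. Coloured points are replicates 1, 2 and 3 and black bars are the mean and SD (n = 3). In the panel of signal shares, Tcf7l1 and Tcf7l2 lie between 0.170% and 0.208%, above every Lef1 value, and Tcf7 lies at 0.00841% or below.

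Lef1 held 0.0476%, 0.0566% and 0.0561% of the list signal in replicates 1, 2 and 3, on average 0.0534% ± 0.00508 (SD, n = 3). Of the 21755 genes, 450 had a higher mean share. Tcf7l1 held 0.203%, 0.208% and 0.175%, a mean of 0.195% ± 0.0179, and 39 genes were higher. Tcf7l2 held 0.177%, 0.170% and 0.172%, a mean of 0.173% ± 0.00341, with 60 genes higher. The range of neither gene overlapped that of Lef1, and each stood above it in 3 of 3 replicates.

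Ctnnb1 held 0.0502%, 0.0515% and 0.0407%, a mean of 0.0475% ± 0.00591, with 544 genes higher. Tcf7 held 0.00841%, 0.00785% and 0.00415%, a mean of 0.00680% ± 0.00231, with 3092 genes higher. The values of Ctnnb1 overlapped those of Lef1, and those of Tcf7 lay below all others. Within its class of gene length, Tcf7l1 stood at percentile 99.7 by signal share, Tcf7l2 at 99.0, Ctnnb1 at 98.8, Lef1 at 92.7 and Tcf7 at 87.9.

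Set beside its paralogs within the same library, Lef1 was exceeded 3.68 ± 0.572 times by Tcf7l1 and 3.26 ± 0.393 times by Tcf7l2 (SD, n = 3). Lef1 exceeded Tcf7 8.80 ± 4.16 times, again in 3 of 3 replicates. Its difference from Ctnnb1 was 0.00598 ± 0.00906 percentage points, positive in 2 of 3 replicates, and so was smaller than its spread. It was 0.00126 without replicate 3 and 0.0103 without replicate 1. An exact two-sided permutation test that flips the sign of the difference gave p = 0.25 for each paralog and p = 0.5 for Ctnnb1. Adjusted over the 4 differences by Benjamini-Hochberg these were 0.333 and 0.5. With 3 replicates 0.25 is the smallest p that can be reached, so none could pass 0.05.

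Between Tcf7l1 and Tcf7l2 the order was the same in every replicate, but by 0.0261, 0.0382 and 0.00256 percentage points. The mean difference, 0.0223 ± 0.0181, was little above its SD, and the ranges of both genes overlapped. When peaks up to 200 kb away were counted, the order turned, with 0.2496% for Tcf7l2. The neighbours Lef1 and Ctnnb1 likewise did not separate beyond their spread with the limit of 100 kb. With a limit of 50 kb they did, with a difference of 0.0286 ± 0.00762 percentage points in favour of Lef1 (SD, n = 3; exact permutation test, two-sided p = 0.25, the smallest that 3 replicates allow).

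Numbers of peaks followed a like order. Lef1 had 9, 8 and 6 peaks in replicates 1, 2 and 3, Tcf7 had 2, 1 and 1, and Ctnnb1 had 9, 6 and 5. Tcf7l1 had 14, 11 and 11 and Tcf7l2 had 17, 13 and 11. Replicate 1 had the most peaks for each gene, and it is also the longest list. A number of peaks depends on where a stretch of signal was broken, so the covered length is given beside it.

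Peaks of Lef1 covered 34.2, 41.5 and 34.2 kb, and 25.4% ± 1.12 of the gene body. Tcf7l1 was covered over 96.4, 96.1 and 83.0 kb, which was 56.4% ± 4.69 of its body. Only 336 genes had a larger part of the body covered. Peaks of Tcf7l2 covered 98.2, 88.5 and 76.1 kb and 39.5% ± 2.66 of the body, and those of Tcf7 covered 5.72, 2.98 and 2.49 kb and 12.2% ± 5.67. For Ctnnb1 the length was 35.1, 30.1 and 23.3 kb, but only 18.1% ± 9.16 of its body was covered, since most of its peaks lay outside the gene. The median gene of 100 to 200 kb had 0.858% of its body covered.

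Single bases repeated between replicates to a different degree. In Tcf7l1 47.3% of the gene body lay under a peak in all 3 replicates and in Tcf7l2 30.6%, which was 77.1 kb and 58.7 kb. The same held for 15.5% of Lef1, 8.05% of Ctnnb1 and 7.44% of Tcf7.

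**Figure D2:**
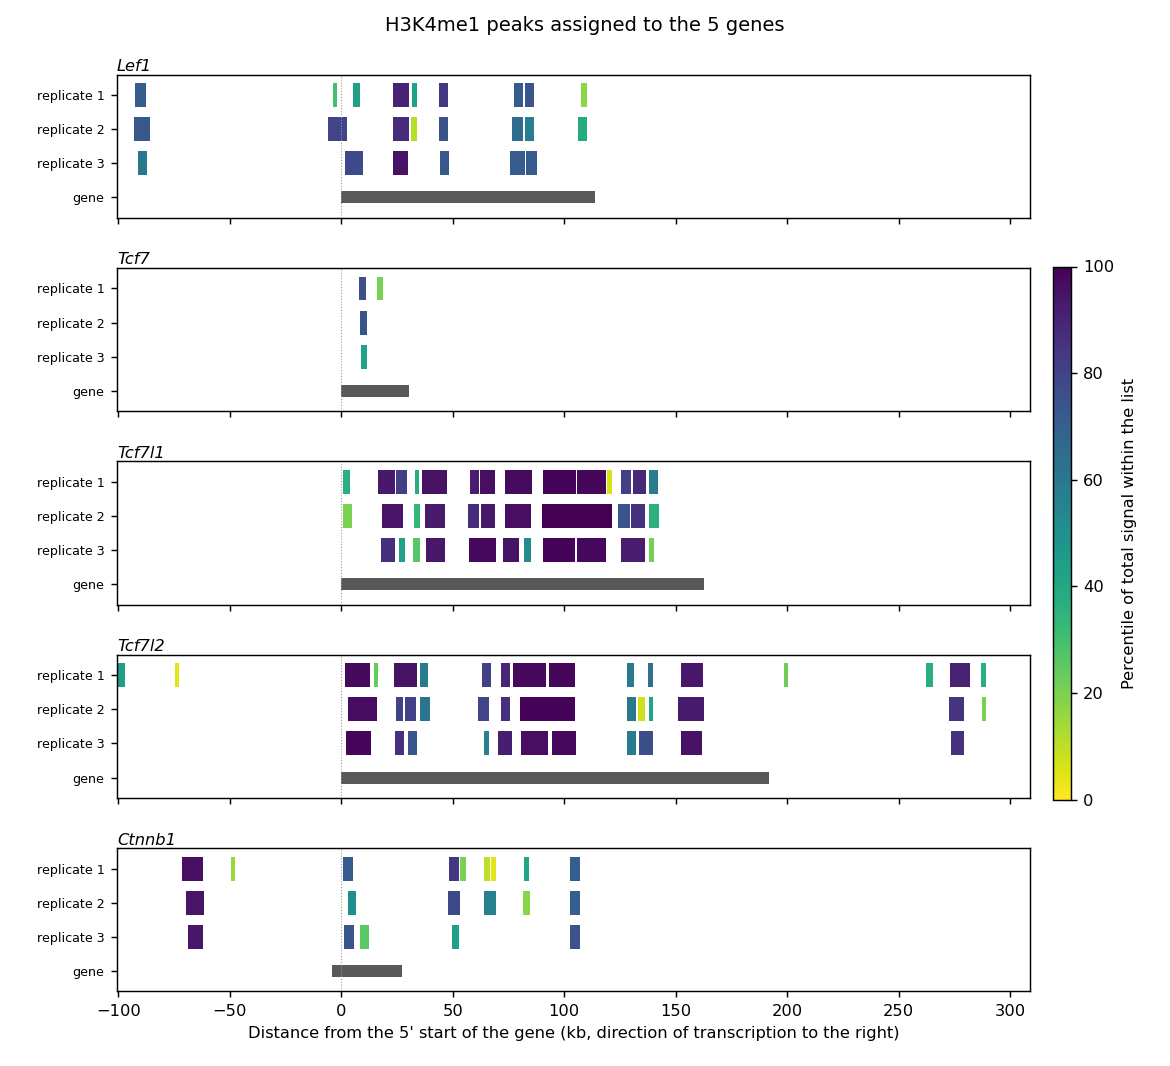
Peaks of each replicate along the 5 genes, all on one scale, as distance in kb from the 5′ start in the direction of transcription. Grey bars are gene bodies and colour is the percentile of total signal within the list. Dark peaks are spread along intron 3 of Tcf7l1 and introns 3 and 4 of Tcf7l2, while the end of both genes is free of peaks. Lef1 shows separate peaks and Tcf7 a single shared one. Most Ctnnb1 peaks lie outside the gene, whose body begins before the 5′ start of its protein-coding transcripts.

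Lef1 (ENSMUSG00000027985.14) lies on the forward strand at chr3:131110471-131224356 and is 113.9 kb long. It had 8 regions, 6 of them with a peak in all 3 replicates and 2 with a peak in replicates 1 and 2. The strongest lay 23.2 to 30.3 kb into the gene, in intron 3, with percentiles 90.5, 88.1 and 95.5 in replicates 1, 2 and 3. Of this 7.18 kb region 92.5% was under a peak in all 3 replicates. It held 0.0119%, 0.0133% and 0.0204% of the list signal, most in replicate 3.

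A further Lef1 region 44.0 to 48.4 kb into the gene, also in intron 3, had percentiles 84.2, 74.8 and 73.0. It contains an internal RefSeq start of Lef1, 45.8 kb from the 5′ start. The 250 bases before that start were under a peak in full in 3 of 3 replicates, and for that reason they are shown here, on the gene's strand.
Lef1, internal start, chr3:131156044-131156293: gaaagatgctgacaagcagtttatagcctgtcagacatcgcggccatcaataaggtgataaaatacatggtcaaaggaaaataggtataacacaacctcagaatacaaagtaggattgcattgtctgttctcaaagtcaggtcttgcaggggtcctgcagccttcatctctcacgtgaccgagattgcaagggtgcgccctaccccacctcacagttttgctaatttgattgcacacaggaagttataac

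In the second part of Lef1, 2 neighbouring regions lay 75.7 to 82.2 and 82.4 to 87.8 kb into the gene. Their percentiles were 71.2, 65.2 and 71.0 for the first, and 73.7, 58.0 and 71.7 for the second, whose maximum in intron 8 is the one shown above. The 2 regions missing from replicate 3 were weak where present. The first, at 31.5 to 34.2 kb, had percentiles 42.5 and 11.3, and the last, in intron 11, had 17.6 and 38.9. Of the 11 introns of Lef1, only 9 and 10 had no base under a peak in any replicate.

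The region at the Lef1 start differed most between replicates. Replicate 2 had 1 peak from -5.76 to 2.42 kb relative to the 5′ start, at percentile 80.0. Replicate 1 had 2 short peaks, from -3.61 to -1.80 kb and from 5.40 to 8.65 kb, at percentiles 29.7 and 43.1. Replicate 3 had 1 peak from 1.80 to 9.74 kb, at percentile 77.5. The peaks join into 1 region of 15.5 kb, yet no base of it was under a peak in all 3. This was so for 35 of 8917 shared regions (0.393%), and for no other region of the 5 genes.

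The Lef1 region furthest upstream, from -92.8 to -85.8 kb relative to the start, is the one that overlaps Leaf, the element studied with these pads. Its percentiles were 70.3, 73.0 and 59.4, below those of the strongest region of intron 3 in every replicate. By maximum signal the percentiles of the Leaf region were 53.7, 67.2 and 28.4. By signal divided by length they were 41.5, 29.5 and 42.9 in this region. Its maxima fell within 23 bp of each other, with their middles at chr3:131019614, 131019618 and 131019637. In every replicate the peak covered Leaf in full. The middle of the maximum lay outside Leaf each time, shortly before the first base that the study gives for it. The window around the maximum of replicate 2 ended inside Leaf, at chr3:131019768.

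Tcf7 (ENSMUSG00000000782.15) lies on the reverse strand at chr11:52252371-52283014 and is best known from T cells. It had 1 region in all 3 replicates, 8.12 to 11.4 kb into the gene, in intron 3, the longest intron with 20.5 kb. Its percentiles were 75.6, 73.9 and 41.9, and the low value was in replicate 3. Regions rich in GC held a lower share of the signal in that replicate, but the part of GC content in the Tcf7 value was not tested. A second, weak region of the same intron was found in replicate 1 alone, at percentile 20.6. The nearest peak upstream of the Tcf7 start was 79.0, 79.9 and 80.7 kb away.

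Tcf7l1 (ENSMUSG00000055799.13) lies on the reverse strand at chr6:72626378-72789254 and is 162.9 kb long. All 9 of its regions had their maximum in intron 3, which is 139.0 kb long and makes up 85.3% of the gene. Peaks covered 67.8%, 67.2% and 59.6% of this intron. Of the 9 regions 8 had a peak in all 3 replicates. The exception lay at the start of the intron, 0.693 to 4.76 kb into the gene, and had percentiles 36.5 and 19.7 in replicates 1 and 2.

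The strongest Tcf7l1 region, 89.9 to 121.6 kb into the gene, reached percentiles 99.1, 99.7 and 99.0. It was 1 peak of 31.7 kb in replicate 2, but 3 peaks in replicate 1 and 2 in replicate 3. It alone held 0.0737%, 0.0775% and 0.0657% of the list signal, more than all peaks of Lef1 in each replicate. Another 4 regions between 16.6 and 85.6 kb had mean percentiles from 91.6 to 96.2, and the region after the strongest had 88.8. The 2 weaker shared regions had mean percentiles 32.4 and 38.5. From intron 5 to the end of the gene no base was covered in any replicate, and upstream of the start the next peak was 4454, 4453 and 191.2 kb away.

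Tcf7l2 (ENSMUSG00000024985.19) lies on the forward strand at chr19:55741820-55933654 and is 191.8 kb long. Its 9 regions within the gene fell into introns 3 and 4, which are 74.6 and 90.6 kb long, and 8 of them had a peak in all 3 replicates. Peaks covered 43.6% ± 6.0 of intron 3 and 47.7% ± 2.15 of intron 4. Introns 5 to 11 were not covered in any replicate.

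The strongest Tcf7l2 region, 76.9 to 105.2 kb into the gene in intron 4, had percentiles 98.1, 99.1 and 98.0 and held 0.0570%, 0.0502% and 0.0517% of the list signal. It was 1 peak in replicate 2 and 2 peaks in replicates 1 and 3. At the start of intron 3, a region from 1.92 to 16.4 kb had percentiles 97.5, 96.5 and 98.8. Another strong region, 151.2 to 162.8 kb into the gene with percentiles 93.8, 92.7 and 95.6, contains an internal RefSeq start at 153.5 kb. The 250 bases before that start were under a peak in full in 3 of 3 replicates.

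Outside the gene Tcf7l2 had 6 regions, 2 upstream and 4 downstream, and only 1 of them was found in all 3 replicates. It lay 272.8 to 282.1 kb from the 5′ start, beyond the end of the gene, with percentiles 91.0, 84.9 and 85.7. With 5′ ends alone as start sites this region was no longer given to Tcf7l2, which then had 8 regions in all replicates in place of 9. Of the others, 4 were found in replicate 1 alone and 1 in replicates 1 and 2.

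Ctnnb1 (ENSMUSG00000006932.17) lies on the forward strand at chr9:120929216-120960507. Its strongest region was not in the gene but upstream, from -71.6 to -61.5 kb relative to the 5′ start, with percentiles 95.8, 94.8 and 93.8. It overlaps the annotated non-coding genes Gm19385, Gm34425 and Gm47070. Within the gene, a region 1.05 to 6.59 kb after the start, in intron 1, had percentiles 71.4, 51.3 and 74.0. A neighbouring peak in intron 1, at percentile 25.6, was found in replicate 3 alone.

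Downstream of Ctnnb1 lay 5 regions, all within the body of Ulk4, a gene of a kinase-like protein, so they belong to Ulk4 as much as to Ctnnb1. The 2 that were found in every replicate had percentiles 84.2, 78.0 and 43.6 for the first and 70.5, 70.6 and 74.8 for the second. With a limit of 50 kb the Ctnnb1 share was 0.0187% in place of 0.0475%, and the order of the 5 genes was the same.

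The 5′ starts themselves were mostly free of peaks. The start of Lef1 was covered in replicate 2 and in no other, and those of Tcf7, Tcf7l1, Tcf7l2 and Ctnnb1 were not covered in any replicate. Over all genes the 5′ start was covered in 5.36%, 6.65% and 2.46% of cases in replicates 1, 2 and 3, and in 1.82% in all 3. Downstream of the start the nearest peak began 0.997, 0.693 and 18.1 kb away in Tcf7l1. In Tcf7l2 it began 1.92, 3.07 and 2.23 kb away, and in Tcf7 8.12, 8.40 and 8.95 kb away. The maximum of a peak fell at most 1 kb from a protein-coding start in 0 of 51, 0 of 39 and 1 of 34 peaks of the 5 genes, the exception being a Lef1 peak. For all peaks this was the case in 5.91%, 7.29% and 3.40%. Introns of any protein-coding gene held the maximum of 80.4%, 87.2% and 88.2% of the peaks of the 5 genes, beside 54.9%, 54.0% and 56.1% of all peaks. Most peaks of the 5 genes were assigned because they overlap a gene body, so the rule itself raises this share. The Ctnnb1 peaks within Ulk4 count here as well. The difference is therefore no result about these genes.

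**Figure D3:**
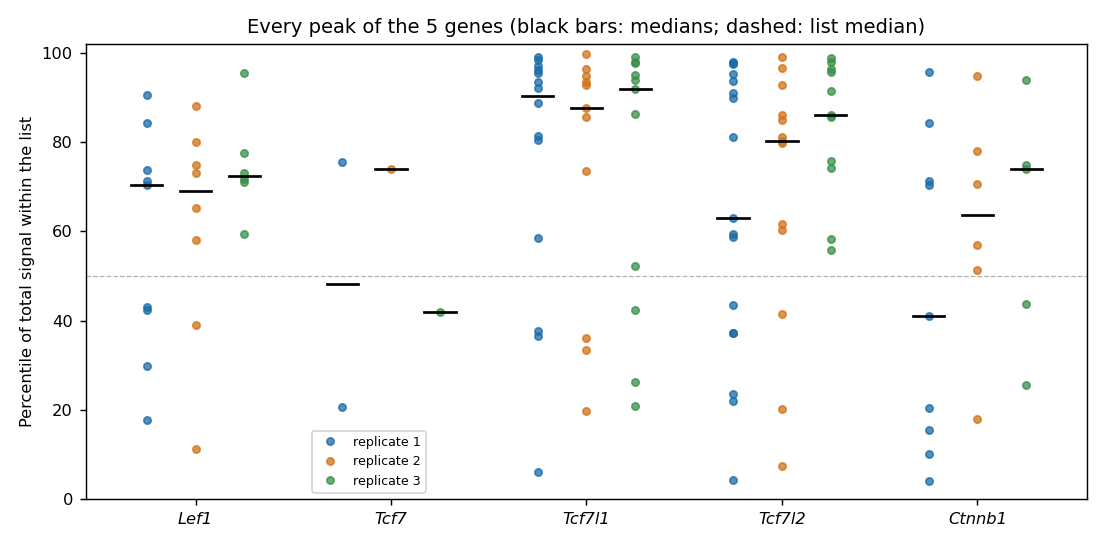
Percentile of total signal within its list for every peak of the 5 genes, by replicate (1 point per peak, black bars the medians, dashed line the median of the list). Most Tcf7l1 peaks lie in the top part of the lists, with medians 90.4, 87.7 and 91.9, while every gene has peaks below the median of the list in at least 1 replicate.

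By rank, too, Tcf7l1 stood highest, with a median percentile of 90.4, 87.7 and 91.9 over its peaks in replicates 1, 2 and 3. Tcf7l2 had medians 63.0, 80.2 and 86.1, and Lef1 had 70.3, 69.1 and 72.3. For Ctnnb1 they were 41.1, 63.8 and 74.0, and for Tcf7 48.1, 73.9 and 41.9. The medians of Tcf7l1 lay above all others, and those of Tcf7l2, Lef1 and Ctnnb1 overlapped. With signal divided by peak length, the mean of the median percentiles was 48.5 for Lef1, close to the middle of the list. It was 53.3 for Ctnnb1, 69.1 for Tcf7, 75.7 for Tcf7l2 and 80.5 for Tcf7l1. The mean of Lef1 was thus the lowest of the 5, below that of Tcf7, which had 1 or 2 peaks per replicate. The gap between Lef1 and Tcf7 was smaller than the SD of the Tcf7 values.

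Of the 43 regions 28 had a peak in all 3 replicates, which is 65.1%, beside 46.3% of all 19251 regions. By gene the count was 6 of 8 in Lef1, 1 of 2 in Tcf7, 8 of 9 in Tcf7l1, 9 of 15 in Tcf7l2 and 4 of 9 in Ctnnb1. Among the other 15 regions, 7 were found in replicate 1 alone, 7 in replicates 1 and 2, and 1 in replicate 3 alone. The shared regions were longer, with a median of 7.06 kb against 3.09 kb, and ranked higher, with a median percentile of 82.3 against 28.1. A like gap was seen over all regions, with 5.003 kb against 2.94 kb and percentile 63.3 against 23.6. When a shared region had to hold peaks that overlap each other by at least 50% of their length, 5 regions were left in Tcf7l1 and 5 in Tcf7l2. Lef1 likewise had 5 such regions, Ctnnb1 had 4 and Tcf7 had 1.

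The maxima of the 3 replicates lay within 500 bp of each other in 18 of the 28 shared regions (64.3%), beside 48.6% of all shared regions. In Tcf7l1 this was so in 7 of 8 regions and in Tcf7l2 in 7 of 9. It was so in 3 of 6 regions of Lef1 and in 0 of 4 of Ctnnb1, where the smallest spread was 1524 bp.

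**Figure D4:**
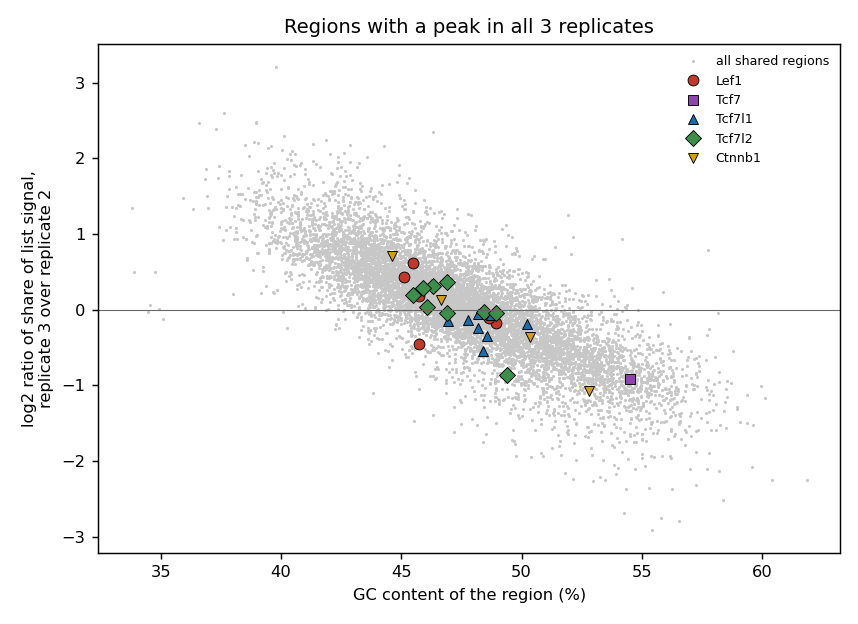
GC content in percent of each region with a peak in all 3 replicates, against the log2 ratio of its share of list signal in replicate 3 over replicate 2. Small grey points are all 8916 regions and large points are the 28 regions of the 5 genes. The ratio falls with GC content, and the Tcf7 region lies furthest to the right of the 28, at 54.5% GC and a log2 ratio of -0.92.

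Replicate 3 differed from replicate 2 with the GC content of a region. Over the 28 regions the log2 ratio of their signal shares, replicate 3 over replicate 2, had a Spearman's rho of -0.77 with GC content, and over all 8916 regions it was -0.83. For replicate 1 over replicate 2 it was -0.05 and -0.18. The regions share their libraries, so these are descriptions without a test. Among the 5 genes the shared region of Tcf7 had the highest GC content, 54.5%, and a log2 ratio of -0.92. The Ctnnb1 region 47.8 to 53.4 kb after its start had 52.8% and -1.07, and the intron 1 region of Ctnnb1, with 44.6%, had 0.72. The strongest Lef1 region had 45.5% GC and a ratio of 0.62. The part of GC content in these differences was not tested.

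**Figure D5:**
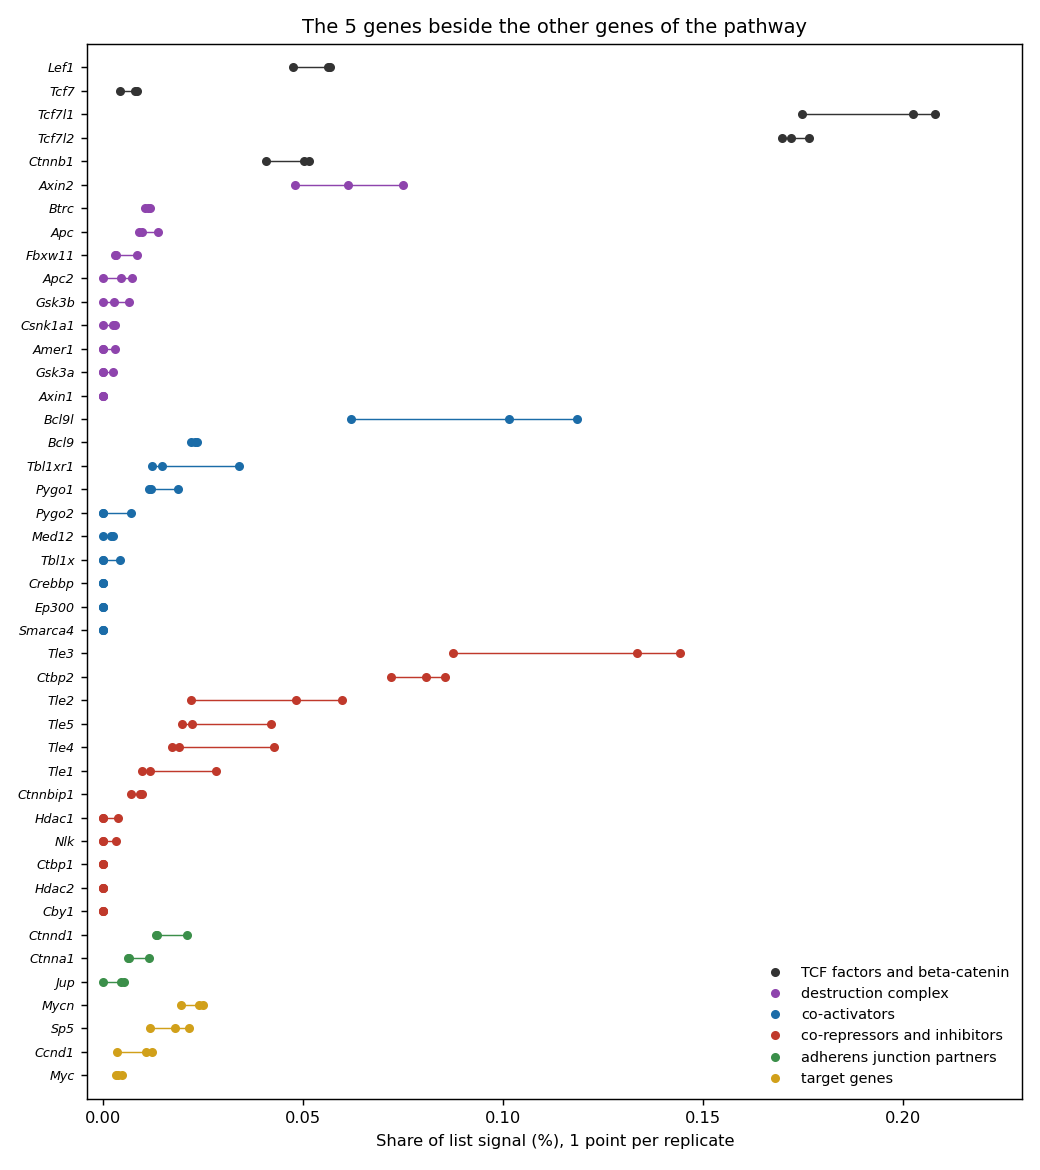
Share of list signal in percent for the 5 genes and 39 other genes of the pathway, with 1 point per replicate and a line over their range. Colours mark the lists. Tcf7l1 and Tcf7l2 lie to the right of every other gene plotted, followed by Tle3, Bcl9l and Ctbp2.

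The other genes of the pathway were taken from 5 lists of 39 genes. A peak over the body with 5 kb on each side was found in all 3 replicates for 16 of them (41.0%, beside 15.5% of all genes), in 1 or 2 for 12 and in none for 11 (28.2%, beside 71.2% of all genes). The genes were longer than average, with a median of 34.8 kb against 17.4 kb.

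Co-repressors and inhibitors carried a peak in all 3 replicates in 7 of 12 cases. These were Tle1, Tle2, Tle3, Tle4 and Tle5, the Groucho-related genes, with Ctbp2, a co-repressor, and Ctnnbip1, whose product binds β-catenin and keeps it from TCF factors. Tle3 held 0.133%, 0.144% and 0.0876% of the list signal, the highest share of the 39 genes. Ctbp2 held 0.0719%, 0.0855% and 0.0808%. No peak was found for Ctbp1, Hdac2 or Cby1.

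Among the co-activators 3 of 10 had a peak in all 3 replicates. Bcl9l, which links β-catenin to Pygopus, held 0.101%, 0.118% and 0.0619%, and its paralog Bcl9 held 0.0219%, 0.0229% and 0.0233%. Tbl1xr1 was the other one, and Crebbp, Ep300 and Smarca4 had no peak by either way of assignment, while Pygo1 had none over its body and flanks. In the destruction complex the count was 3 of 10. Axin2, a scaffold that is itself a Wnt target, held 0.0613%, 0.0751% and 0.0478%, and Btrc, an F-box protein that marks β-catenin for degradation, held 0.0111%, 0.0117% and 0.0104%. Fbxw11 also had a peak in all 3. Axin1 had no peak, and Apc and Csnk1a1 had none over the body and flanks.

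Of 3 adherens junction partners, Ctnnd1 and Ctnna1 had a peak in all 3 replicates. Their shares were 0.0132%, 0.0134% and 0.0209% for Ctnnd1 and 0.00641%, 0.00627% and 0.0114% for Ctnna1, both highest in replicate 3. Of 4 target genes 1 had a peak in all 3, Sp5, with 0.0116%, 0.0180% and 0.0215%. Mycn had a peak over its body or flanks in 2 replicates, and with its peaks further away held 0.0250%, 0.0238% and 0.0193%. Ccnd1 had such a peak in 2 replicates and Myc in none. Axin2 and Tle2 overlapped both Lef1 and Ctnnb1 in their ranges of shares, and Tle4 and Tle5 overlapped Ctnnb1 alone. Every gene of the 39 stayed below Tcf7l1 and Tcf7l2.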

How the data were processed

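H3K4me1 was profiled by CUT&Tag in 3 whisker pads. Per the submitters' processing notes, Bowtie2 (2.3), SAMtools (0.1.19), bedtools and SEACR (1.3) were used with mm10. The authors called peaks per replicate in the stringent mode of SEACR and kept the top 1% of signal blocks, after trying larger fractions too. They called them without the IgG samples, since IgG replicate 1 had a poor distribution of fragment lengths and few peaks were reproduced. The lists therefore carry no control for background. The deposited signal columns, the summed and the highest coverage of a peak, held whole numbers, were not scaled to depth and carry no read numbers. The study states 1 nominal sequencing depth for all samples, and the depth each library reached was not measured here.

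Genes and 41249 protein-coding start sites came from the GENCODE vM21 basic annotation and sequences from GRCm38 (RefSeq), within whose chromosomes every peak ended. Peaks were assigned to genes, merged and ranked in Python 3.11.15 (numpy 2.4.6, scipy 1.17.1), and the assignment was checked on simulated peaks. A percentile is the rank of a peak by total signal within its list. A gene's share is the total signal of its peaks over that of the list. Replicates are numbered by the pad in their titles, and no contrast between conditions exists. Alternatives covered distances, flanks, start sites, stronger peaks, joined peaks, overlap, signal measures and each replicate left out.

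The 5 genes, the lists and the tests were chosen with earlier results of these data known. The rule named the 5 genes, the 2 genes of each list with the highest share, and per gene its strongest shared region, the peaks nearest to its start and, for Lef1, the region over Leaf. Other regions were named after their values were seen, as were the windows of closest maxima. The values of 1 kidney gene by itself and 1 sequence window are not reported here.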

Additional observations from a re-analysis of the deposited data

How the results depend on the processing

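Of 339 values recomputed for 30 results, 48 were differences of Lef1 from another gene, judged by direction alone, which all 48 kept. Their size moved, for Lef1 minus Tcf7l2 from -0.119 to -0.177 percentage points with a limit of 200 kb, and for Lef1 minus Ctnnb1 from 0.00598 to 0.0286 with 50 kb and to between 0.00126 and 0.0103 with a replicate left out. Of the other 291 values, 40 moved beyond the spread between replicates or beyond 1.5 times a count. The order of the 5 genes by signal share was the same under 11 of 12 alternatives and turned for Tcf7l1 and Tcf7l2 with a limit of 200 kb. The start sites of all annotated transcripts, an alternative chosen after seeing the data, moved none of the latter beyond these bounds. The causes were not tested where the construction of an alternative does not give them.

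With a limit of 50 kb the Lef1 share was 0.0473% and its median percentile 65.1, the Tcf7l2 share 0.157%, and Ctnnb1 had a mean of 4 peaks, a share of 0.0187%, a median percentile of 39.5 and 2 regions in all replicates. With 200 kb the shares were 0.0724% for Lef1, 0.2496% for Tcf7l2 and 0.0606% for Ctnnb1, the Lef1 median percentile was 64.6, and Tcf7l2 had a mean of 22.7 peaks and 17 regions in all replicates. A 20 kb flank gave a Lef1 median percentile of 66.0 and 3 target genes with a peak in all replicates. With 5′ ends alone as start sites the Tcf7l2 share was 0.159%.

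Among the strongest 10000 peaks the shares were 0.215% for Tcf7l1 and 0.189% for Tcf7l2, the Lef1 median percentile 59.3, and 1 gene of the destruction complex had a peak in all replicates. In the stronger 50% of each list the shares were 0.0613% for Lef1, 0.237% for Tcf7l1 and 0.211% for Tcf7l2, the median percentiles 46.6 for Lef1 and 87.4 for Tcf7l1, Tcf7 had a mean of 0.667 peaks with 0 regions in all replicates, Ctnnb1 had 4 peaks, and 1 gene each of the destruction complex and the adherens junction partners had a peak in all replicates. When peaks closer than 1 kb were joined, the Lef1 median percentile was 66.4. By maximum signal the medians were 65.1 for Lef1, 72.0 for Tcf7 and 87.7 for Tcf7l1, and by signal per length 48.5 for Lef1 and 80.5 for Tcf7l1. Under 50% overlap Tcf7l1 and Tcf7l2 each had 5 regions in all replicates. With CTTTGAT alone 1 window held the motif.

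Leaving out each replicate gave 1 to 3 target genes with a peak in all those left, 3 of them without replicate 3. No paired analysis was possible because only 1 group, H3K4me1, was analysed here and its partners of the same number, the IgG samples, were not. Paired here means an H3K4me1 sample set beside its IgG sample. The permutation test above instead compared Lef1 with another gene within each H3K4me1 library. The lists hold no read numbers, so a weak region missing from a replicate was not detected there and is not shown to be absent.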
